A study of Mus musculus with 8 samples.

Results

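Protein kinase C enzymes are serine/threonine kinases that carry signals from phospholipase C at the plasma membrane into the cell. The set described here is 8 mouse genes of this family, Prkca, Prkcb, Prkcd, Prkce, Prkch, Prkcq, Prkcz and Prkci, out of 21883 protein-coding genes. Every ATAC-seq peak that touched the span of one of these genes or the 20 kb on either side of it was taken, and the span with its flanks is called a locus. Merged across libraries, the 8 loci held 117 of 52251 regions. The members were chosen by measured values, the peak calls and peak strengths of these FGR and control libraries, so their values in that contrast are a description and carry no test.

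ATAC-seq marks open chromatin by cutting it with a transposase, and a local excess of cuts is called as a peak. The 8 libraries came from hippocampal microglia of mice aged 3 weeks, 4 labelled Ctrl and 4 labelled FGR, the name for offspring whose growth was restricted before birth. All animals of both groups were heterozygous for a Tmem119-tdTomato reporter, which marks microglia. The labels give neither the way growth was restricted nor the number or sex of animals behind a library.

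The libraries were unequal. They held 10862 to 24195 peaks in Ctrl and 23327 to 29501 in FGR, and their background coverage, a measure of depth in extended reads per base recovered from the deposited values, ran from 3.01 to 6.05 in Ctrl and from 3.52 to 4.82 in FGR. Ctrl 2 had the shortest list and the lowest coverage. FGR 1 and FGR 3 shared the identical summit base in 8.95% of overlapping peaks and FGR 2 and FGR 4 in 7.45%, against 1.74% to 2.10% in 13 other pairs. In Ctrl 1 and Ctrl 2, summits sat 138 to 141 bp (medians) away from where the other 6 libraries placed them. Their peaks were also wider, the median being 566 bp in Ctrl 1, 522 bp in Ctrl 2 and 353 to 386 bp elsewhere. The part of this in their low peak numbers and missed regions was not tested. Each FGR pair is counted as 1 sample in means (n = 2 pairs), while the 4 Ctrl libraries, of which no pair shared more than 2.005% of summits, are counted singly (n = 4). An FGR SD thus leaves out the spread within pairs and cannot be compared with a Ctrl SD. Start peaks, peaks within 1 kb of an annotated transcription start, were called at 3 to 7 of the 9 microglia markers with a listed start in Ctrl and at 6 to 8 in FGR, against 37.6% to 51.0% of all genes with a listed start, library by library. Of the 9, Cx3cr1, Sall1 and Irf8 had start peaks in all 8 libraries, P2ry12 in 1 and Aif1 in 0. Of the marker lists of neurons, oligodendrocyte lineage, astrocytes, lymphocytes, border macrophages and endothelial cells, none had more than 1 gene with a start peak in any library, and Kdr, the gene of an endothelial growth factor receptor, had a start peak in Ctrl 1 and Ctrl 4 and in every FGR library. The astrocyte gene Aldh1l1, the lymphocyte gene Lck and the border macrophage gene Mrc1 had one in FGR 4 and in no other library. Their part in the values below was not tested. A pooled library also cannot tell a site open in more cells from a site cut more often per cell.

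The family falls into 3 classes by the signal each enzyme needs. The conventional kinases, PKC alpha (Prkca) and PKC beta (Prkcb), need both calcium and diacylglycerol, the lipid that phospholipase C releases. PKC delta (Prkcd), epsilon (Prkce), eta (Prkch) and theta (Prkcq) need diacylglycerol but not calcium, and the atypical kinases PKC zeta (Prkcz) and PKC iota (Prkci) need neither and work with the polarity proteins of the Par complex and with p62. In macrophages and microglia these kinases are known for roles in phagocytosis, the oxidative burst and inflammatory signalling, and PKC theta is best known from T cells.

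The starts of the family differed in how regularly they were open. The regions at the starts of Prkca, Prkcb and Prkci were called in all 8 libraries, that of Prkcd in 7, that of Prkcq in 6, and that of the main Prkcz start in 1. Of all 17491 protein-coding genes with a listed start, 34.6% had a start peak in all 8 libraries. Below are the 250 bases before the start of 4 members, read 5′ to 3′ on the strand of the gene, from RefSeq on GRCm38.p6, whose coordinates are those of mm10. They were chosen because they contrast 3 regularly called starts with a start called in a single library, and because they lie upstream of the annotated gene but for at most 29 bases. Capitals mark a GC box (GGGCGG) or a CCAAT box (CCAAT) on either strand.
Prkca, chr11:108343889-108344138, minus strand: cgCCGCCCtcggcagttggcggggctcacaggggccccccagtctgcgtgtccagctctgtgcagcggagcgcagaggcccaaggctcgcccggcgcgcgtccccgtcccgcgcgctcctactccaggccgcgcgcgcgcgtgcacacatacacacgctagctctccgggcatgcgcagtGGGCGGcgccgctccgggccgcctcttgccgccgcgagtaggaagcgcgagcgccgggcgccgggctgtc
Prkcb, chr7:122288875-122289124, plus strand: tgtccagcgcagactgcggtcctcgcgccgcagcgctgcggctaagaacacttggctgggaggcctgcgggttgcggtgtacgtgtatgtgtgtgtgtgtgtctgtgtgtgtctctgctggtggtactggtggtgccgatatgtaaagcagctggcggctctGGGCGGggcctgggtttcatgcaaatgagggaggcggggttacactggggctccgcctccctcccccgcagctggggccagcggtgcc
Prkci, chr3:30995521-30995770, plus strand: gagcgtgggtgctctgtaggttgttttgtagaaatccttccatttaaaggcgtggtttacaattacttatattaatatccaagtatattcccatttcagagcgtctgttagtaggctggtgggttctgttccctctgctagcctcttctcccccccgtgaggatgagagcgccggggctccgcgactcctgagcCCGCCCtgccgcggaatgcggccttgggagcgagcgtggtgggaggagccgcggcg
Prkcz, chr4:155361429-155361678, minus strand: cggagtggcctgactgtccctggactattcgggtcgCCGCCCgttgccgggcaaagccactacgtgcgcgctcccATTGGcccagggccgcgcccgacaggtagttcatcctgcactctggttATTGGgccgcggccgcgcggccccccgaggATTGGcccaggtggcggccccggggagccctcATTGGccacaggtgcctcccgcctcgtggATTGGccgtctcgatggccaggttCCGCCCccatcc
A called peak overlapped the Prkca and Prkci windows in 8 libraries, the Prkcb window in 7 and the Prkcz window in 1. The 7 motifs searched on both strands were the GC box, the CCAAT box, the ETS core CCGGAAG, the AP-1 site TGANTCA, the E-box CACGTG, the palindromic NRF1 site and the CRE core TGACG, which occur in 32.7%, 33.8%, 6.91%, 6.75%, 6.02%, 0.782% and 17.8% of 32851 such windows. The Prkcz window held 5 CCAAT boxes and 2 GC boxes, the most matches in the 4. The Prkca window held 2 GC boxes, and those of Prkcb and Prkci 1 each. The window of Prkcd, not printed because 206 of its bases lie inside the annotated gene, held 4 GC boxes and 1 E-box that overlaps the first of them. The GC content was 76.8% for Prkca, 65.2% for Prkcb, 56.4% for Prkci and 70.8% for Prkcz, against a median of 52.4% over all windows. These 4 windows thus all lay above the median in GC content, and the least regularly called of them, that of Prkcz, was not the poorest in GC or in matches.

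Across the family the clearest separation between the groups was at Prkch, which encodes PKC eta. Its locus held more peaks in every FGR library than in any Ctrl library, by count, as a share of the list, and in lists cut to equal length. At Prkca, 2 regions deep inside the gene had a call in each of the 4 FGR libraries and in no Ctrl library, the only such regions in the family. The other loci overlapped between the groups by count and by share of the list. In lists of equal length Prkcq, with 0 peaks in every Ctrl library and 1 or 2 in each FGR library, did not overlap either. That rests on 5 peaks in all. In such lists the mean was lower in FGR at Prkca, Prkcb, Prkcz and Prkci and higher at Prkcd and Prkce, with overlap. Of the 8034 loci that averaged 2 or more peaks, 4.12% were higher by count in every FGR library and 0.0124% lower. By share of the list, the peaks of a locus per 10000 peaks of its library, 1.46% were higher and 5.80% lower. In lists of equal length 0.884% were higher and 1.26% lower. Of the 7 members past that mean, 1 was higher and 0 were lower by each measure. Prkcq did not reach the mean of 2 peaks, so these shares do not cover it.

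**Figure D1:**
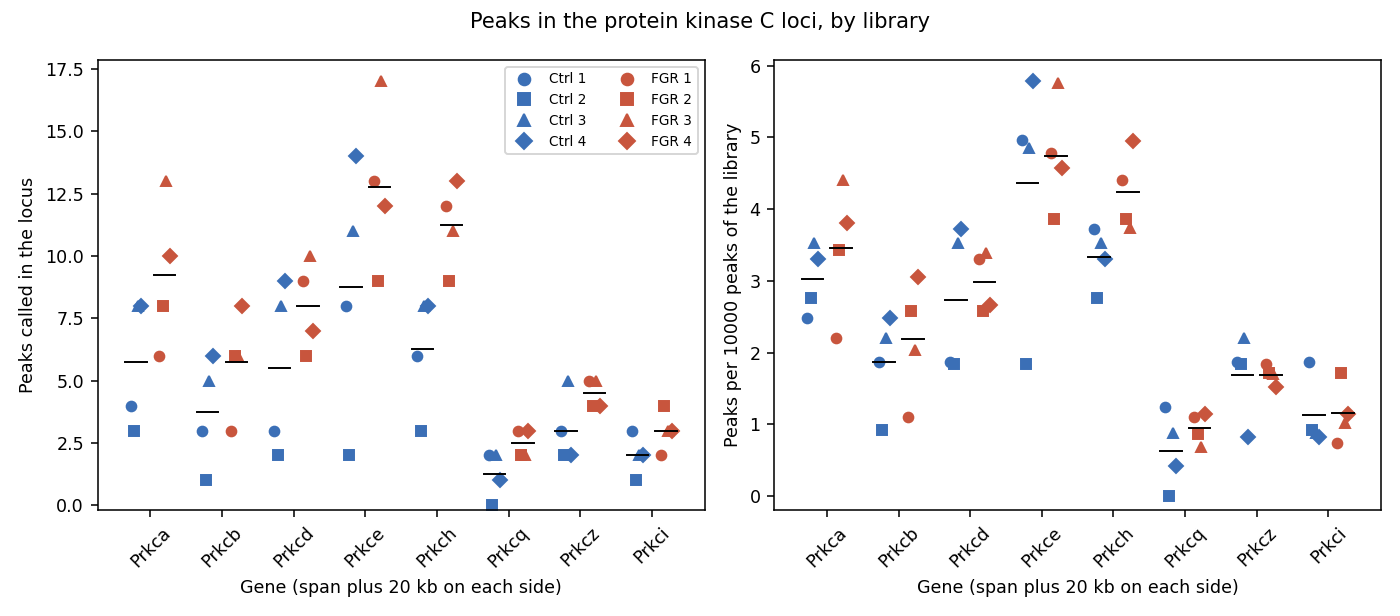
Peaks called in each protein kinase C locus (left, number of peaks) and the same as a share (right, peaks per 10000 peaks of the library) for 4 Ctrl (blue) and 4 FGR (red) libraries, with symbols for replicates and black bars for group means. The FGR points of Prkch, 9 to 13 peaks, lie above its Ctrl points, 3 to 8 peaks, while the points of Prkcd and Prkce overlap.

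Prkca encodes PKC alpha, a conventional kinase found in most tissues (chromosome 11, 107933387 to 108343888). Its locus held 4, 3, 8 and 8 peaks in Ctrl 1 to 4 and 6, 8, 13 and 10 in FGR 1 to 4. FGR 3 had the most and the groups overlapped, since FGR 1 lay below Ctrl 3 and Ctrl 4 and FGR 2 equalled them. Ctrl averaged 5.75 ± 2.63 peaks (SD, n = 4) and FGR 9.25 ± 0.354 (SD, n = 2 pairs), a 1.61-fold difference. The FGR SD leaves out the spread within pairs, such as that between 6 in FGR 1 and 13 in FGR 3. Per 10000 peaks of the list, the locus held 2.48, 2.76, 3.52 and 3.31 in Ctrl and 2.21, 3.43, 4.41 and 3.81 in FGR. FGR 1 was the lowest of all and FGR 3 the highest, and the averages, 3.02 ± 0.48 in Ctrl (SD, n = 4) and 3.46 ± 0.222 in FGR (SD, n = 2 pairs), differed 1.15-fold. In lists of equal length the order turned, with 3, 3, 4 and 4 peaks in Ctrl and 3, 2, 3 and 4 in FGR. The FGR minus Ctrl difference in log2 share was then -0.21 ± 0.20 (SE).

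The 2 Prkca regions called in every FGR and no Ctrl library lay 332.596 kb and 108.318 kb downstream of the start. The first (chromosome 11, 108011112 to 108011472) had summit pileups, the number of extended reads over the summit, of 25, 21, 27 and 22 in FGR 1 to 4, and ranked at the 59.6, 30.5, 45.2 and 18.0 percentile of its list by -log10 q. This percentile depends on the length of the list, since weak peaks added to a list raise the percentile of the stronger ones. The second (108235285 to 108235855) had summit pileups of 17, 27, 22 and 30 and percentiles of 12.3, 53.2, 18.6 and 53.2. They were thus of low to middle rank, and at the second FGR 1 and FGR 3 were the low libraries. The lowest pileup called at the background coverage of a list was 14, 11, 13 and 16 in Ctrl 1 to 4 and 12, 12, 14 and 14 in FGR 1 to 4. The family's 2 such regions are 1.71% of its 117, against 0.869% of all 52251 regions, and 0 member regions were called in 4 Ctrl and 0 FGR libraries, against 0.0268% of all. This contrast chose the family, so nothing is read from these shares. With every list cut to its strongest 10862 peaks the count was 0 in either direction, against 0.722% of regions for FGR and 0.508% for Ctrl, and with -log10 q of at least 5 it was also 0. Between FGR 3 and 4 and Ctrl 3 and 4 alone, 4 member regions or 3.42% were called in both of these FGR libraries and missed by both of these Ctrl libraries, against 3.06% of all regions. In the other direction there were also 4, or 3.42%, against 1.22%.

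Prkca also carried regions open in every library. A region 120.717 kb into the gene (chromosome 11, 108222610 to 108223732) ranked at the 68.9, 30.6, 73.5 and 62.0 percentile in Ctrl 1 to 4 and at 91.0, 74.0, 88.8 and 83.2 in FGR 1 to 4. Every FGR library ranked it higher than every Ctrl library, although FGR 2 and Ctrl 3 were close. The strongest Prkca region by median, 95.437 kb into the gene (108248083 to 108248819), ranked at 72.8, 59.0, 79.1 and 60.02 in Ctrl and at 82.0, 86.9, 71.0 and 82.5 in FGR, and the groups overlapped. The start region (108342798 to 108344389) ranked at 55.6, 63.0, 55.2 and 71.5 in Ctrl and at 79.2, 34.4, 80.2 and 65.2 in FGR. Here FGR 2 was the lowest of all and FGR 3 and FGR 1 the highest. Of the 11 member regions called in all 8 libraries, 2 ranked higher in every FGR library, the one 120.717 kb into Prkca and that at the gene end of Prkch, and none ranked lower. The same held for 9.90% of all regions called in 8 libraries, and 0.632% ranked lower.

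**Figure D2:**
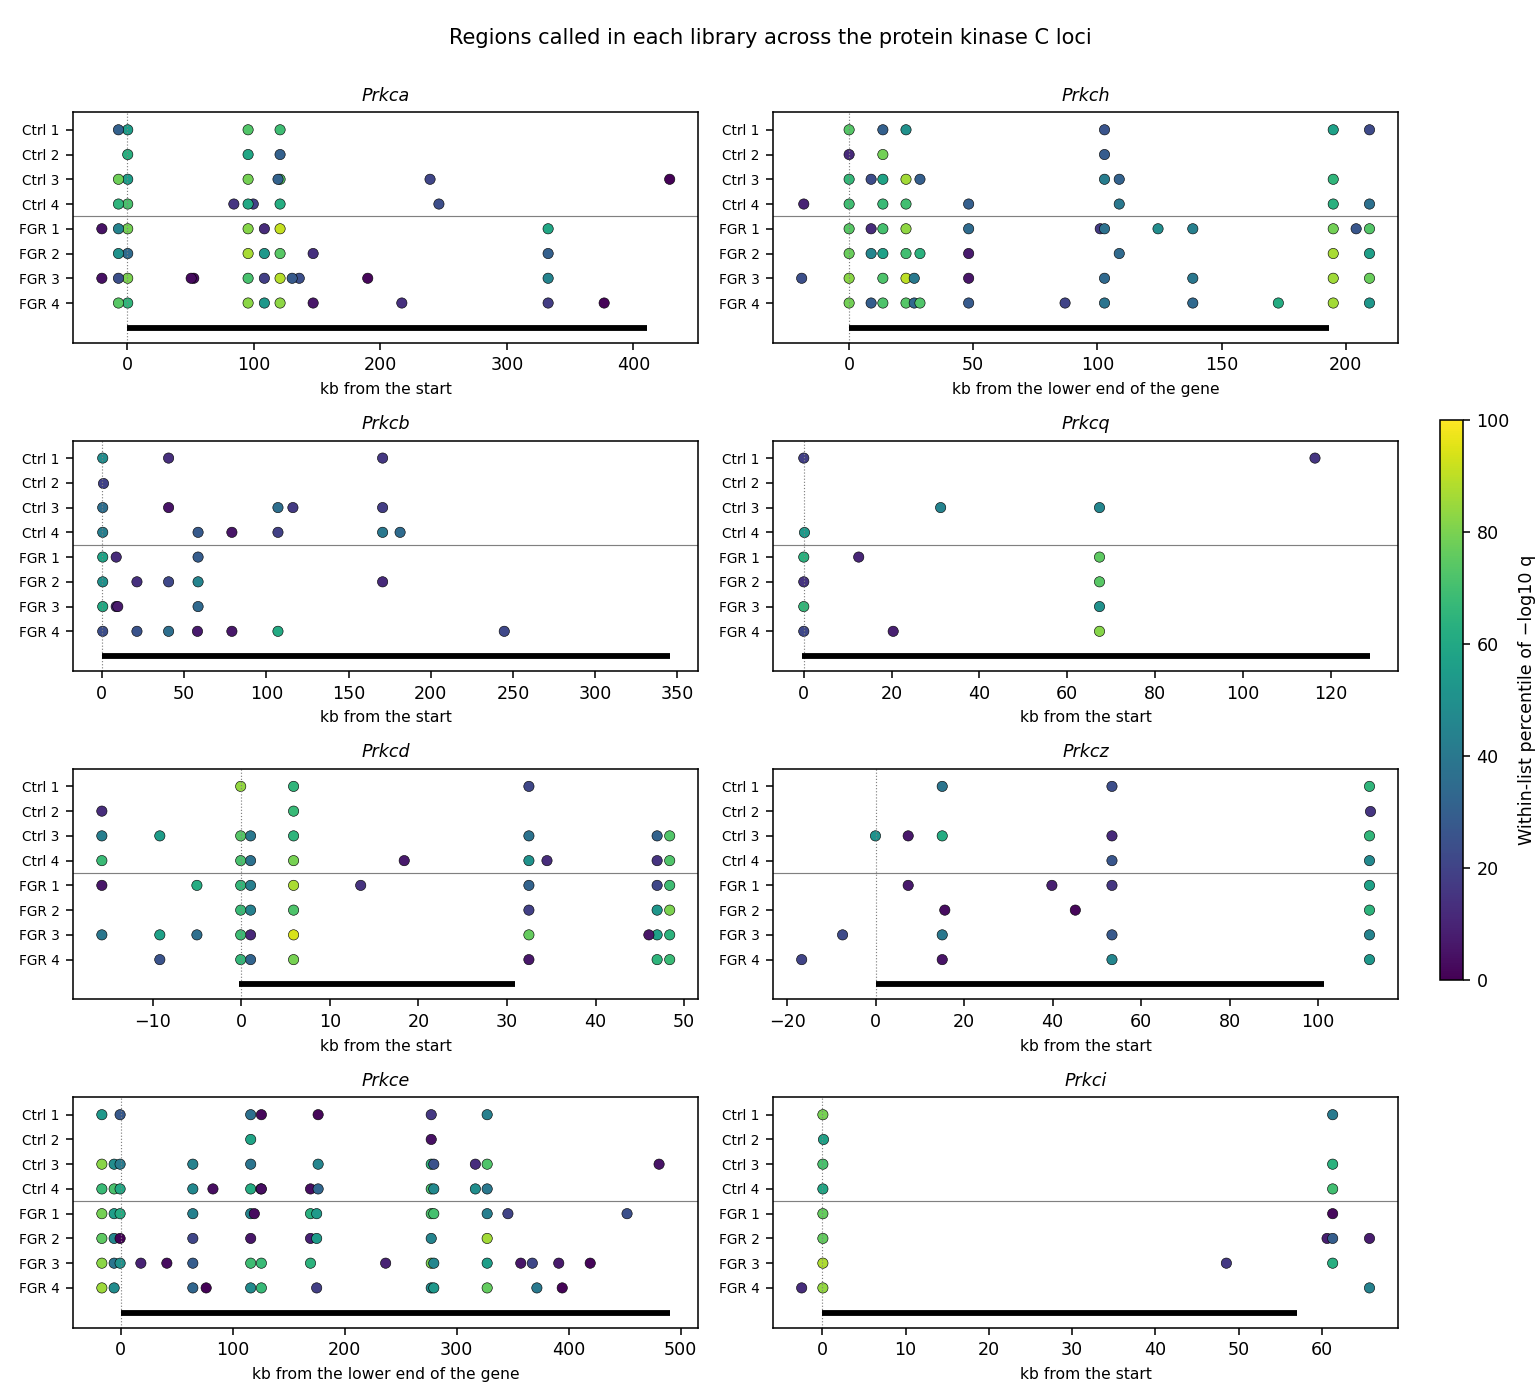
Regions called in each library across the 8 loci, by distance in kb from the annotated start, or from the gene end with the lower coordinate for Prkce and Prkch, coloured by the within-list percentile of -log10 q; the black bar is the annotated gene and Ctrl libraries lie above the grey line. The starts of Prkca, Prkcb, Prkcd, Prkcq and Prkci and a few intragenic sites recur in most libraries, while the main Prkcz start appears in 1. The Prkca sites at 108.318 and 332.596 kb appear in the 4 FGR rows only.

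Prkcb, whose product PKC beta is a main conventional kinase of myeloid and B cells (chromosome 7, 122289104 to 122634402), had few and weak peaks for its length. Its locus held 3, 1, 5 and 6 peaks in Ctrl 1 to 4 and 3, 6, 6 and 8 in FGR 1 to 4. FGR 1 was as low as Ctrl 1, and the groups overlapped. Per 100 kb of locus, the mean over libraries was 1.23 peaks, against 9.50 at Prkcd and 1.11 at Prkcq, the extremes of the family. The median was 1.76 over all protein-coding loci and 4.62 over those that averaged 2 or more peaks. The start region (122288766 to 122290497) was the only Prkcb region called in all libraries. It ranked at 48.5, 19.8, 35.9 and 42.6 in Ctrl and at 58.1, 50.3, 60.2 and 23.6 in FGR. With a median percentile of 45.5 it was the weakest of the 11 member regions called in all 8 libraries. Of the other 12 Prkcb regions, all inside the gene, none was called in more than 4 libraries. A region 170.707 kb into the gene (122459623 to 122460041) was called in 3 Ctrl and 1 FGR libraries, and one at 58.487 kb (122347455 to 122347769) in 1 Ctrl and 3 FGR libraries.

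Prkcd encodes PKC delta, a kinase with roles in apoptosis and in the innate immune response (chromosome 14, 30595353 to 30626414). It was the most densely covered member, with 54 peaks over 8 libraries in a locus of 71.1 kb. Of its 13 regions, 8 lay in the 20 kb flanks. The locus held 3, 2, 8 and 9 peaks in Ctrl 1 to 4 and 9, 6, 10 and 7 in FGR 1 to 4. Ctrl 1 and Ctrl 2 were low and the other 6 libraries overlapped. The FGR minus Ctrl difference in log2 share was 0.11 ± 0.22 (SE) over all libraries, but -0.28 ± 0.17 without Ctrl 1 and Ctrl 2. In the libraries of replicates 3 and 4 alone it was -0.27 ± 0.22, and in those of replicates 1 and 2 alone 0.48 ± 0.34. With all 8 libraries kept it was -0.16 ± 0.24 with no flank and -0.11 ± 0.17 with a flank of 50 kb. The sign of the Prkcd difference thus turned with the choice of libraries and with the width of the locus.

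A site 5.909 kb into Prkcd (30619914 to 30620684) was its strongest region. Its summit pileup was 49, 34, 47 and 64 in Ctrl 1 to 4 and 63, 51, 79 and 63 in FGR 1 to 4, at the 65.5, 67.3, 65.1 and 79.4 percentile in Ctrl and 87.3, 71.9, 94.0 and 79.6 in FGR. Ctrl 4 ranked it above FGR 2, so the groups overlapped. The start region (30625755 to 30626782) went the other way in rank, at 83.9, 73.8 and 71.4 in Ctrl 1, 3 and 4, with no call in Ctrl 2, and at 66.3, 67.7, 68.6 and 66.5 in FGR 1 to 4. All 3 Ctrl libraries with a call ranked it above all FGR libraries. The share of all regions with this order and a call missing was not counted, so nothing is read from it. A neighbouring region that reaches to within 1 kb of the start (30624970 to 30625337) and 2 regions in the downstream flank (30577676 to 30578017 and 30578963 to 30579566) were called in all libraries but Ctrl 1 and Ctrl 2. These 3 are among the 5 member regions missed by Ctrl 1 and Ctrl 2 only, and a further 7 were missed by Ctrl 2 only. The shares of all regions missed in these ways were not counted, so nothing is read from these numbers.

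Prkce encodes PKC epsilon, which in macrophages takes part in the response to bacterial lipopolysaccharide (chromosome 17, 86167785 to 86657919). It is the longest member and had the most peaks, 86 over 8 libraries. The locus held 8, 2, 11 and 14 peaks in Ctrl 1 to 4 and 13, 9, 17 and 12 in FGR 1 to 4. The lowest value was Ctrl 2 and the highest FGR 3, and Ctrl 4 exceeded 3 of the FGR libraries. Its strongest region lay at -16.693 kb, outside the gene end with the lower coordinate (86150788 to 86151397), and ranked at the 53.4, 82.2 and 67.6 percentile in Ctrl 1, 3 and 4, with no call in Ctrl 2, and at 79.1, 75.1, 82.5 and 85.3 in FGR 1 to 4. The region at that gene end itself (86166613 to 86168148), which also overlaps the lncRNA gene Gm5817, was called in 3 Ctrl and 3 FGR libraries and ranked between 0.733 and 61.3. Inside the gene, regions at 116.154 kb (86283601 to 86284277) and 277.290 kb (86444746 to 86445404, overlapping the lncRNA gene Gm30284) were called in all 8 libraries. Prkce held 16 regions called in a single library, the most of any member.

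Prkch encodes PKC eta, a kinase first described in epithelia and also present in endothelial and immune cells (chromosome 12, 73584796 to 73778185). Its locus held 6, 3, 8 and 8 peaks in Ctrl 1 to 4 and 12, 9, 11 and 13 in FGR 1 to 4. The lowest FGR library had 9 peaks and the highest Ctrl libraries 8, so the groups did not overlap. Ctrl averaged 6.25 ± 2.36 peaks (SD, n = 4) and FGR 11.3 ± 0.354 (SD, n = 2 pairs), a 1.80-fold difference. Here too the FGR SD leaves out the spread within pairs. Per 10000 peaks of the list, the locus held 3.72, 2.76, 3.52 and 3.31 in Ctrl and 4.41, 3.86, 3.73 and 4.95 in FGR. By share the groups almost touched, at 3.72 in Ctrl 1 and 3.73 in FGR 3, with means of 3.33 ± 0.415 in Ctrl (SD, n = 4) and 4.24 ± 0.238 in FGR (SD, n = 2 pairs), a 1.27-fold difference. In lists of equal length the locus held 3, 3, 4 and 4 peaks in Ctrl and 5, 6, 5 and 6 in FGR, again with no overlap, a pattern shared by 0.884% of loci with the higher values in FGR and 1.26% in the other direction. The FGR minus Ctrl difference in log2 share was 0.28 ± 0.18 (SE). Under the other settings that divide by list length it lay between 0.21 and 0.59, the highest with lists of equal length. Several of these settings leave the estimate as it is by construction. Without that division the difference in log2 peaks was 0.87, and the median of all loci moved from -0.28 to 0.31.

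None of its 19 regions was called in 4 FGR and 0 Ctrl libraries. Of these regions, 10 were called in both groups, 8 or 42.1% only in FGR and 1 or 5.26% only in Ctrl libraries, against 42.3% and 14.9% of all regions. The FGR-only share was thus that of the background. Of the 8, 6 were called in a single library. The 2 others lay at 26.219 kb (73610864 to 73611167, FGR 3 and FGR 4) and at 138.390 kb from the lower gene end (73722995 to 73723377, FGR 1, FGR 3 and FGR 4). A region at 48.125 kb (73632628 to 73633214) was called in Ctrl 4 and in every FGR library, with summit pileups of 23 in Ctrl 4 and 18, 15, 17 and 20 in FGR 1 to 4.

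The strongest Prkch region lay 1030 bp beyond the gene end with the higher coordinate (73779215 to 73780271), where it overlaps the lncRNA gene Gm34189. It ranked at 56.8, 65.4 and 63.4 in Ctrl 1, 3 and 4, with no call in Ctrl 2, and at 78.7, 87.1, 85.8 and 86.2 in FGR 1 to 4. Its summit pileup was 31, 35 and 39 in those Ctrl libraries and 38, 45, 52 and 49 in FGR. All FGR libraries ranked it above Ctrl 1, 3 and 4. In pileup, which depends on depth but not on list length, Ctrl 4 exceeded FGR 1. Background coverage was 6.05 in Ctrl 4 and 3.82 in FGR 1. The deposited fold, a ratio of summit pileup to local background, was 3.85 to 4.63 in those Ctrl libraries and 5.03 to 6.13 in FGR. By fold the libraries with a call did not overlap between the groups. A flank region at 209.552 kb (73794027 to 73794669) had the same order in rank. It stood at 22.7 and 36.5 in Ctrl 1 and Ctrl 4, with no call in Ctrl 2 and Ctrl 3. In FGR 1 to 4 it stood at 73.3, 56.1, 77.0 and 53.0. The shares of all regions separate in rank or fold with a call missing were not counted, so nothing is read from either order. At the lower gene end (73584271 to 73585302), which overlaps the neighbouring protein-coding gene LOC115488016, the percentile was 73.6, 11.8, 66.5 and 69.5 in Ctrl and 74.0, 77.2, 82.6 and 78.5 in FGR. The groups were separate there by a narrow margin between Ctrl 1 and FGR 1. By contrast, a region at 13.583 kb (73598102 to 73598657) ranked highest of all libraries in Ctrl 2, at 78.6.

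**Figure D3:**
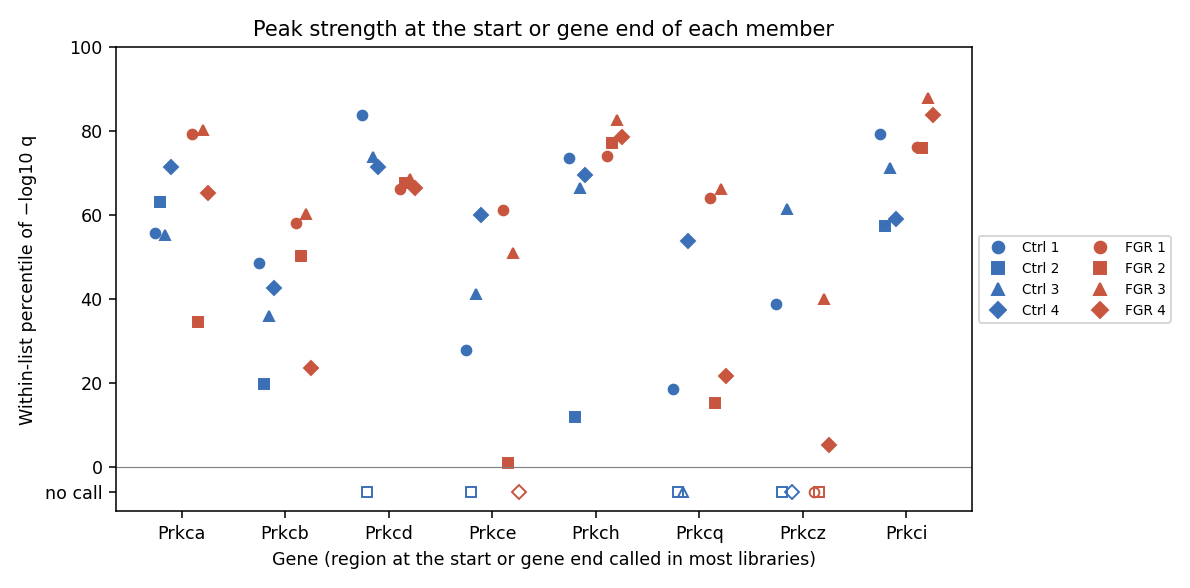
Within-list percentile of -log10 q (vertical axis) of the region at each member's start, or gene end for Prkce and Prkch, called in most libraries, for 4 Ctrl (blue) and 4 FGR (red) libraries; open symbols mark no call. Prkci lies between 57.4 and 87.8 with calls in all 8 libraries, Prkca and Prkch have 1 low library each (FGR 2 at 34.4, Ctrl 2 at 11.8), and Prkcz, for which an internal start is shown, has calls in 4.

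Prkcq, whose product PKC theta relays antigen receptor signals in T cells (chromosome 2, 11171905 to 11301226), had the fewest peaks. Its locus held 2, 0, 2 and 1 peaks in Ctrl 1 to 4 and 3, 2, 2 and 3 in FGR 1 to 4. Ctrl 2 had none. The start region (11172101 to 11172667) was called in Ctrl 1 and Ctrl 4, at the 18.5 and 53.8 percentile, and in all FGR libraries, at 64.0, 15.1, 66.1 and 21.6. FGR 1 and FGR 3 were high there and FGR 2 and FGR 4 low. A site 67.354 kb into the gene (11239561 to 11239912) was called in Ctrl 3, at 46.0, and in all FGR libraries, at 75.0, 74.1, 50.2 and 81.7. Its summit pileup was 25 in Ctrl 3 and 31, 28, 24 and 36 in FGR, so that Ctrl 3 exceeded FGR 3. Of 7 lymphocyte markers with a listed start, 6 had no start peak in any library, and Lck, a T cell kinase gene, had one in 1 FGR library.

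Of the atypical kinases, Prkci, the gene of PKC iota (chromosome 3, 30995742 to 31052740), had a strong start and few other sites. Its locus held 3, 1, 2 and 2 peaks in Ctrl 1 to 4 and 2, 4, 3 and 3 in FGR 1 to 4, and the groups overlapped. In lists of equal length it held 2, 1, 2 and 2 in Ctrl and 1 in each FGR library. The start region (30995334 to 30996355) ranked at 79.4, 57.4, 71.2 and 59.0 in Ctrl and at 76.3, 76.1, 87.8 and 83.8 in FGR. Only Ctrl 1 kept the groups from being separate there. With a median of 76.2 it was the strongest start of the family, and its summits lay within 35 bp of the annotated start in Ctrl 3 and in FGR 1 to 4. In Ctrl 1 and Ctrl 2 they lay at -95 and -160 bp from it and in Ctrl 4 at 309 bp. The only other Prkci region called in more than 2 libraries lay beyond the far end of the gene (31056534 to 31057561), in 3 Ctrl and 3 FGR libraries.

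Prkcz, the gene of PKC zeta, also gives rise in neurons to the short kinase PKM zeta from an internal start (chromosome 4, 155260118 to 155361428). Its locus held 3, 2, 5 and 2 peaks in Ctrl 1 to 4 and 5, 4, 5 and 4 in FGR 1 to 4, and Ctrl 3 equalled the highest FGR libraries. In lists of equal length it held 2, 2, 2 and 0 in Ctrl and 0, 1, 0 and 0 in FGR. The main start (155361376 to 155361609) was called only in Ctrl 3, at the 51.2 percentile. Near an internal start 15.033 kb into the gene (155346084 to 155346706), a region was called in Ctrl 1 and Ctrl 3, at 38.9 and 61.4, and in FGR 3 and FGR 4, at 40.04 and 5.24. The only region called in all 8 libraries (155249055 to 155250513) lies in the neighbouring gene Faap20, a member of the Fanconi anaemia DNA repair pathway, beyond the end of Prkcz. It ranked at 65.3, 15.3, 65.9 and 47.1 in Ctrl and at 57.4, 64.6, 44.8 and 52.9 in FGR. Inside Prkcz, the most regular region lay at 53.412 kb (155307552 to 155308481), with calls in 3 Ctrl and 3 FGR libraries.

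The 117 regions of the family recurred unevenly across libraries. In 1 library only, 58 regions or 49.6% were called, against 45.9% of all regions, and in all 8 libraries 11 or 9.40%, against 16.9%. The regions called in all libraries had a median percentile of 69.2 and those called in 1 library 13.4. Of the 11, 3 lay at starts, 1 at a gene end, 6 inside genes and 1 in a flank. FGR libraries alone called 52 regions, or 44.4%, and Ctrl libraries alone 19, or 16.2%, against 42.3% and 14.9% of all regions. Of the 52, 41 were called in 1 FGR library. FGR 1 and FGR 3 alone shared 3 regions, or 2.56% of the 117, and FGR 2 and FGR 4 alone also 3, or 2.56%, against 3.78% and 1.81% of all regions.

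**Figure D4:**
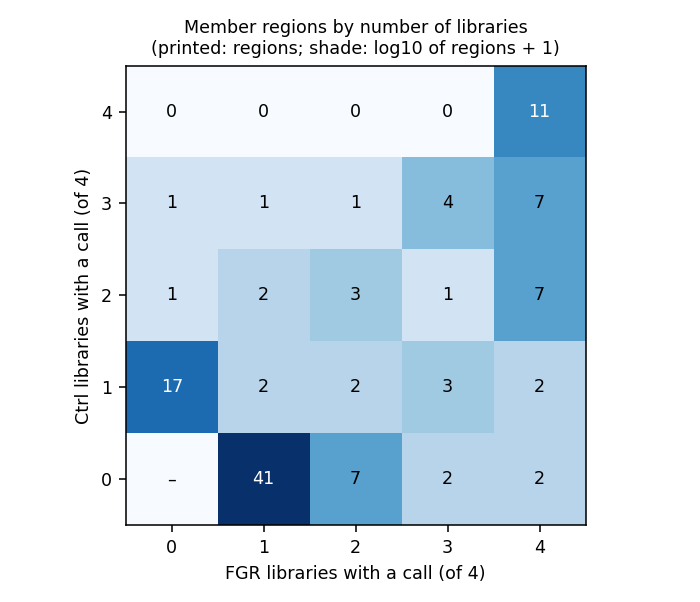
Number of member regions by how many Ctrl (vertical axis) and FGR libraries (horizontal axis) called them, of 4 each. The largest cells are the 41 regions of 1 FGR library, the 17 of 1 Ctrl library and the 11 called in all 8, and 2 regions stand at 4 FGR and 0 Ctrl.

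All 8 loci together held 32, 14, 49 and 50 peaks in Ctrl 1 to 4 and 53, 48, 67 and 60 in FGR 1 to 4. Per 10000 peaks of the list these were 19.9, 12.9, 21.6 and 20.7 in Ctrl and 19.5, 20.6, 22.7 and 22.9 in FGR, with Ctrl 2 apart from the other 7 libraries, which overlapped. In log2 share the FGR minus Ctrl difference was 0.11 ± 0.20 (SE) for Prkca, 0.10 ± 0.26 for Prkcb, 0.16 ± 0.21 for Prkce, -0.0015 ± 0.26 for Prkcz and -0.07 ± 0.29 for Prkci, beside 0.28 for Prkch. The median of all 8034 loci was -0.28. Without division by list length that median was 0.31 and the members lay between 0.52 (Prkci) and 0.87 (Prkch), and with lists of equal length it was 0.00.

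**Figure D5:**
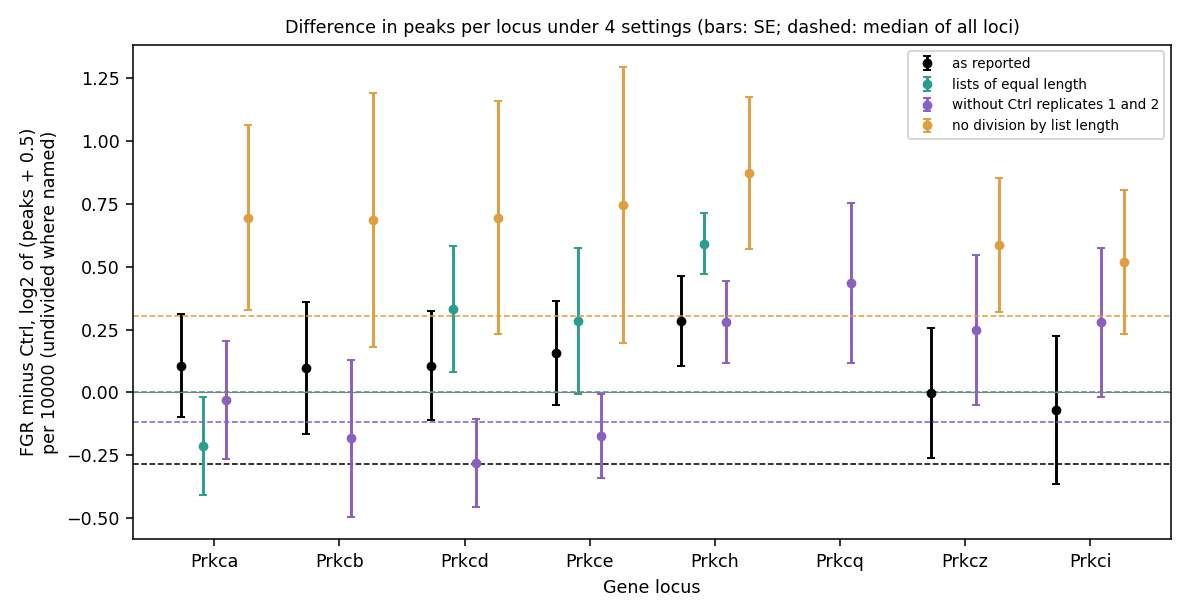
FGR minus Ctrl difference in log2 of peaks plus 0.5 per 10000 peaks (undivided in the setting so named), with SE bars, for each member under 4 settings, where its locus passed the filter; dashed lines give the median of all loci under the same setting. Prkch lies above 0 and above the median in each, and Prkca, Prkcb, Prkcd and Prkce fall below 0 without Ctrl replicates 1 and 2.

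In limma, fitted to all 8034 loci, 1 locus was higher in FGR after adjustment, or 0.0124%, that of the engulfment gene Elmo1 (log2 1.19 ± 0.22 SE, limma adjusted p = 0.0232), and 0 were lower. The split was 10 higher and 1 lower without division by list length, 13 and 7 with lists of equal length and 7 and 50 with a pseudocount of 1. The count of higher loci fell to 0 without Ctrl 1, without FGR 2, FGR 3 or FGR 4, without Ctrl 1 and Ctrl 2 together, with pairs averaged and with no flank. Around the family, 61 further genes of the pathway were listed, of which 47 had loci past the filter. By limma, 0 of the 47 passed in either direction, and 10 or 21.3% had an unadjusted p under 0.05, against 18.2% of all loci. Their median log2 difference was -0.22, against -0.28 over all loci. By share, 4 of the 47 or 8.51% were lower in every FGR library, against 5.80% of all, and 0 higher. Among them were Ppp1r14b, a phosphatase inhibitor gene and PKC substrate (log2 -0.96 ± 0.25 SE, limma adjusted p = 0.118), Pard6a, a partner of the atypical kinases (-0.83 ± 0.27 SE, limma adjusted p = 0.158), and Plcb3, a phospholipase C gene (-0.66 ± 0.21 SE, limma adjusted p = 0.158). By count each of these 3 overlapped between the groups, as Pard6a with 3, 2, 3 and 3 peaks in Ctrl and 2, 2, 3 and 2 in FGR.

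Genes with a listed start were also counted by group. Start peaks in all 8 libraries were found for 4 of 10 phospholipase C genes and 5 of 9 diacylglycerol kinase genes. The latter kinases remove the lipid. They were also found for 3 of 8 other diacylglycerol receptor genes and 5 of 7 genes of PKC priming and anchoring. For partners of the atypical kinases it was 4 of 6, and for substrates and effectors 4 of 12. Over all 17491 protein-coding genes with a listed start it was 34.6%. The locus whose pattern was most like that of Prkce, the member with the most peaks, was Sash3 (Pearson r = 0.96 over 8 libraries in log2 share), followed by its neighbour Xpnpep2 (0.96), which shares peaks with it, and Kalrn (0.95). All 3 had 0 peaks in Ctrl 2, and 34 of 8033 loci had an r above 0.9. The points share library, depth and list length.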

How the data were processed

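The deposited files are 8 peak lists, 1 per library. Peaks were called separately for each library, and the tools, per the submitters' processing notes, were MACS2 2.2.7.1, DiffBind 3.12.0, Bowtie2 2.4.5, Trim Galore 0.6.5 and SAMtools 1.3.1, on build mm10, with no role or setting. Whether reads were shifted, duplicates removed or a blacklist applied is not given in the sources. The deposited score is 10 times the deposited -log10 q, cut to a whole number, and was not used. The deposited fold, a ratio of summit pileup to local background, and the deposited -log10 p are met by a whole number of reads under a Poisson distribution for 100% of peaks within 0.001, which gave each summit's pileup and the library's lowest background coverage. Ranks are percentiles of the deposited -log10 q within a list and are the authors' values for that peak.

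Gene spans and starts came from RefSeq tables of GRCm38.p6, and all 8 members and all 61 pathway genes matched. Starts were listed for 6 members, and for Prkce and Prkch both gene ends were used. Exons were not used. Peaks sharing at least 1 bp were merged into regions, and a region is called in a library when a peak of it falls there. Peaks per locus were compared over all loci that averaged 2 or more peaks. The test was limma 3.58.1 (R 4.3.3), trend on, of log2 peaks plus 0.5 per 10000 peaks, with Benjamini-Hochberg adjustment at 0.05. The 8 libraries entered singly although some share summits, so its p-values may be too small. On simulated FGR and Ctrl counts at 8034 loci, limma recovered 0.5% of 200 loci changed by a fold of 2 and 90% of 200 changed by a fold of 4. The simulated counts were independent Poisson draws, without libraries that share or displace summits, so recovery in the real lists may differ. Python 3.11.15, pandas 2.3.3, numpy 2.4.6, scipy 1.17.1 and matplotlib 3.10.9 were used.

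All members are named, with their start region, their strongest region by median percentile and every region called in all of 1 group and none of the other. Pathway genes are named where limma called them or where their shares did not overlap, by size. The values of 1 such gene are not reported here. Other regions were chosen after their values were seen. Members, lists and motifs were chosen with earlier results of these data known. Replicates 1 and 2 were deposited under other library names than replicates 3 and 4, and are called deposit sets 1 and 2. Nothing says whether libraries came from separate animals, so that p-values measure only the spread between these libraries, which may be technical.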

Additional observations from a re-analysis of the deposited data

Results flagged for a closer look

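In the share of peaks at the Prkci locus, Ctrl 1 stood apart from the other 3 Ctrl libraries, with 1.86 peaks per 10000 against 0.827 to 0.921. The gap to the nearest library was 0.909 of the group's range. This was 1 of 16 groups of 4 libraries examined, and chance gives about 1 in 20. The 3 peaks of Ctrl 1 comprised 1 at the start and 2 in the region beyond the far end of the gene (chromosome 3, 31056534 to 31057561), which the other libraries with a call covered with a single peak.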

How the results depend on the processing

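The number of loci called higher in FGR by limma was 1, and the number called lower was 0. They became 13 and 7 with lists of equal length, 7 and 50 with a pseudocount of 1, 10 and 1 without division by list length, and 7 and 9 without the filter on low counts. No locus was called higher without Ctrl replicates 1 and 2, with pairs averaged or with no flank (0 in each). Leaving out 1 library gave 0 to 8 higher and 0 to 7 lower, with 8 and 7 without Ctrl 3, 2 and 2 without Ctrl 4, 1 lower without FGR 1, and 0 of either without Ctrl 1, FGR 2, FGR 3 or FGR 4. With the replicate number as a block 54 were higher and 87 lower. The labels do not say that equal numbers share an animal or day. Deviations of same-numbered Ctrl and FGR libraries correlated at -0.02, 0.10, 0.07 and 0.03, which cannot tell whether they do. Ctrl 1 correlated best with FGR 2 and Ctrl 4 with FGR 3, while Ctrl 2 and Ctrl 3 correlated best with their own number.

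The 2 member regions called in 4 FGR and 0 Ctrl libraries became 0 with -log10 q of at least 5, 0 with lists of equal length and 0 with equal length and without Ctrl replicates 1 and 2. Of all regions, 1.21%, 0.722% and 1.48% had that pattern under these settings. Leaving out 1 library, which loosens the requirement, gave 2 to 3 of 99 to 117 member regions, against 0.884% to 1.82% of all regions. The 2 regions of Prkca were among those found when any 1 library was left out and in either deposit set. This was fixed in advance, since a region with that pattern in all libraries keeps it in any part of them. Fewer libraries gave 4 of 107 member regions in set 2, against 3.62% of all, and 13 of 68 in set 1, against 8.78%. Regions called in 4 Ctrl and 0 FGR libraries numbered 0, and 0 to 1 when a library was left out (1 without Ctrl 2), 2 without Ctrl replicates 1 and 2 and 4 in set 2 alone. Of all regions, 0.0314% to 0.152% had this pattern with 1 library left out. It held for 0.757% without Ctrl replicates 1 and 2 and for 1.47% in set 2. The settings by deposit set and the equal-length lists without 2 libraries were chosen after seeing the data. The causes were not tested, beyond the fewer libraries named. Peak counts per locus are small, and list length and depth limit any smaller difference. The cause of a missing call cannot be told from a list.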

Other observations

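Inside Prkce, 2 neighbouring sites had opposite calls, a pair picked after its values were seen. A site at 175.042 kb from the lower gene end (chromosome 17, 86342690 to 86342965) was called in FGR 1, FGR 2 and FGR 4, with summit pileups of 22, 24 and 20, and in no Ctrl library. The site 920 bp further on (86343886 to 86344369) was called in Ctrl 1, Ctrl 3 and Ctrl 4, with summit pileups of 19, 23 and 25, and in no FGR library. It was the only member region with 3 Ctrl and 0 FGR libraries. Regions with 3 FGR and 0 Ctrl libraries numbered 2, the first site and that in Prkch at 138.390 kb. The shares of all regions with these patterns were not counted, so nothing is read from these numbers. The percentiles were 54.0, 54.7 and 18.6 at the first site and 1.93, 45.4 and 32.6 at the second. The difference was not tested.

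Summits at several intragenic sites fell at close positions in libraries of both groups. At the Prkce site 277.290 kb from the lower gene end, the summits of Ctrl 3, Ctrl 4 and FGR 1 to 4 lay between 277295 and 277303 bp from that end, while those of Ctrl 1 and Ctrl 2 lay at 277112 and 277385 bp.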
